A study of Mus musculus with 12 samples.

Results

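Neurospheres that had received an adenovirus expressing prominin-1 were compared at 108 h and at 24 h of culture, on 3 arrays at each time, which are 6 of the 12 arrays of the series. The spheres were grown from mouse cortex of gestational day 12.5 in serum-free medium with basic FGF (20 ng/ml), EGF (20 ng/ml) and LIF (0.15 ng/ml). The prominin cultures carried the adenovirus labelled CD133/R-prominin1 at both times. Control cultures, also 3 arrays at 24 h and 3 at 108 h, are labelled as kept in growth medium alone, whereas the design text speaks of spheres positive for GFP or prominin, so prominin-1 and the virus that carried it cannot be told apart. The treatment text of the 24 h prominin arrays gives 108 h too, and the time in their titles was used. Each array set Cy5-labelled sphere RNA against Cy3-labelled RNA of whole C57/Bl6 embryos of gestational day 12, with no dye swap. Values are log2 ratios, centred on each array, and a positive value is taken as more RNA in the spheres than in the embryo. That direction is not stated in the labels and is likely from the design text and from the marker genes below. Nothing in the labels tells whether replicate arrays came from different cultures. The p-values therefore cover only the spread between these arrays, which may be technical. Which culture time was hybridised when is not given, so culture time and array batch cannot be told apart.

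Prominin-1 (CD133) is a cholesterol-binding glycoprotein with several membrane passes that sits on microvilli and other protrusions. It is used as a surface marker of neural stem and progenitor cells. Neurospheres are floating clusters that such cells form under FGF and EGF, and they give rise to astrocytes, oligodendrocytes and neurons when growth factors are withdrawn. Growth in such clusters is accompanied by differentiation of part of the cells, and in whole-sphere RNA fewer cells of a type and less RNA per cell cannot be told apart.

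Of all probes, 2 passed the test: Hba-a1, an adult-type alpha globin, and AF071431, which has no gene symbol in the tables used here. Embryonic globins, liver proteins and ribosomal proteins had differences that did not pass. The 100 bases before the RefSeq start of 3 globin genes (build GRCm38.p6) are shown because Hba-a1 passed and the 2 embryonic globins had large differences in the same direction. They lie at chr11:32283572-32283671 (Hba-a1, plus strand), chr11:32276500-32276599 (Hba-x, plus strand) and chr7:103853208-103853307 (Hbb-y, minus strand). Capitals mark known elements of globin promoters, searched on both strands: the letters CCAAT (the CCAAT box), the letters CACCC (the CACCC box) and the letters TATAA (the TATA element).
Hba-a1: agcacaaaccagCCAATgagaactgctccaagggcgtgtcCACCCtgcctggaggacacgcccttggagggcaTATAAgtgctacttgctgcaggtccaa
Hba-x: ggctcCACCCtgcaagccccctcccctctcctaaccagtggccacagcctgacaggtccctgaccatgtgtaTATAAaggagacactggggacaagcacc
Hbb-y: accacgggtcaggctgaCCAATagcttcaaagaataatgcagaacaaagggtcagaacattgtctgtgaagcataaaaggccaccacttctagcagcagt
Hba-a1 holds all 3 motifs, Hba-x holds CACCC and TATAA, and Hbb-y holds CCAAT. Among the windows of 27025 genes, 21.6% hold CCAAT, 30.1% CACCC, 11.8% TATAA and 0.559% all 3. The promoters of Hba-a1 and its copy Hba-a2 are identical over 297 aligned bases, and the 2 genes are near-identical copies, so the Hba-a1 probe cannot be taken to separate them.

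Ribosomal protein genes are known for a short run of C and T at the start of their transcripts. The 15 bases on each side of the start are shown for 3 of the ribosomal genes with large differences, at chr7:141447636-141447665 (Rplp2), chr7:4792950-4792979 (Rpl28) and chr10:80292416-80292445 (Rps15), all on the plus strand. Capitals mark a run of at least 8 C or T that reaches within 10 bases of the start.
Rplp2: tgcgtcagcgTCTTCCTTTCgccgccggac
Rpl28: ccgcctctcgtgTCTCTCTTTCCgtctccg
Rps15: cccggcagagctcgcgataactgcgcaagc
Such a run was found in 26 of 53 ribosomal protein genes in the table (49.1%) and in 15.8% of all 27025 genes, and not at the listed start of Rps15. These matches are a description of the letters only.

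The array held 21738 probes, of which 11893 had at least 2 values in both prominin groups and were tested. They covered 9807 genes, and 6328 of them had values on all 6 arrays. Of the 9845 probes not tested, 5331 lacked values at 24 h only, 1562 at 108 h only and 2952 at both times. The 24 h arrays held fewer measured probes (11919 to 14465) than the 108 h arrays (15944 to 16375). Ratios of small whole numbers, as dim spots give, were 42.9 to 51.3% of the values on a 24 h array and 3.28 to 9.60% of those on a 108 h array. This gap runs along culture time in the control cultures too, and its part in the results was not tested. The median probe lay at −1.38, −1.14 and −0.99 on the deposited 24 h arrays and at −2.59, −1.78 and −2.32 at 108 h, so centring moved 108 h minus 24 h differences up, by an amount that depends on which arrays measured a probe, and the median over genes went from −1.04 to 0.02. Prominin arrays correlated at 0.689 to 0.783 within 24 h, 0.604 to 0.68 within 108 h and 0.605 to 0.715 across times.

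The label of cortical neurospheres was checked against marker genes. Over the 6 arrays, the neural stem and radial glia genes Sox2 (3.48 to 5.06), Fabp7 (2.87 to 4.12), Vim (2.38 to 2.92) and Slc1a3 (4.83 to 7.64) lay above the median probe. So did Gfap, an astrocyte intermediate filament (7.69 to 9.46), S100b (6.12 to 7.91) and Olig2, a factor of the oligodendrocyte lineage (4.32 to 5.90). The neuronal genes Tubb3 (−5.97 to −3.49) and Stmn2 (−7.29 to −2.82) lay far below it, as did the fibroblast collagen Col1a1 (−7.71 to −2.63). Neuronal genes were not low throughout: Eno2, a neuronal enolase, lay at 2.88 to 4.55 and Gap43, of growing axons, at −0.10 to 1.34. The stem and glial markers named so far lay above the median probe on all 6 arrays, and those of neurons on either side of it. Their lists were not high throughout. The stem and radial glia genes Sox1 (−5.34 to −2.34), Id3 (−3.72 to −2.30) and Tnc (−3.99 to −1.41) lay below it on all 6 arrays. The astrocyte gene Apoe (−1.57 to 1.17) lay on either side.

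Prom1, the gene of the transferred protein, was measured on 2 arrays at each time. Its values were −1.62 and −0.45 at 24 h and −0.11 and −0.85 at 108 h. The groups overlap, and the difference of 0.55 (SE 1.00) was far from the threshold (limma adjusted p = 0.935; exact permutation p = 0.667, where the smallest possible is 0.333). Without centring the difference is −0.65, so its sign depends on the scale, and 2 of the 4 values are ratios of small whole numbers. In control cultures Prom1 lay at 1.72 and 0.66 at 24 h and at −2.51, −2.33 and −4.34 at 108 h, a difference of −4.25 (SE 0.87, adjusted p = 0.408) between groups that do not overlap. The difference between the time differences was 4.80 (SE 1.29, adjusted p = 0.805). The control values at 24 h, −0.322 and −0.807 as deposited, are also ratios of small whole numbers, so both differences rest on such values. Whether this mouse probe detects the transferred sequence is not given in the sources used here.

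Across the 11893 probes, 2 differed between 108 h and 24 h at an adjusted p under 0.05 (0.0168%), both higher at 108 h. At an unadjusted p under 0.05 there were 953 (8.01%), with 523 higher (4.4%) and 430 lower (3.62%). In 1345 probes (11.3%) all 108 h values lay above all 24 h values, and in 1116 (9.38%) all lay below. Over gene averages, 4977 of 9807 genes were higher (50.7%) and 4830 lower (49.3%), and 1 gene, Hba-a1, passed (0.0102%). The median SE of a difference was 1.09, so a gene had to differ by several log2 units to pass. In control cultures limma called 0 of 9155 probes (635 at an unadjusted p under 0.05, 6.94%). The test of the difference between the 2 time differences called 0 as well (545 unadjusted, 5.95%).

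Hba-a1, the alpha chain of fetal and adult hemoglobin, rose with time. Its values were −5.21, −6.83 and −6.50 at 24 h and 0.66, −0.34 and −0.28 at 108 h. All 24 h spheres held far less of it than the embryo reference, and the 108 h spheres stood close to their median probe. The difference was 6.19 (SE 0.76, limma adjusted p = 0.0241). In control cultures the values were −4.19, −4.62 and −5.79 at 24 h and −1.03, −2.98 and −1.91 at 108 h, a difference of 2.89 (SE 0.72, adjusted p = 0.477). The control groups do not overlap either, and the excess in prominin cultures of 3.30 (SE 1.02) did not pass (adjusted p = 0.805). As deposited, without centring, the prominin difference was 5.13 (adjusted p = 0.04).

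The second probe that rose, AF071431, has no gene symbol in the tables used here. It lay at −7.16, −7.76 and −6.68 at 24 h and at −1.22, −1.39 and −1.08 at 108 h. The 3 arrays of each time lie close together, and the difference of 5.97 (SE 0.65, limma adjusted p = 0.0157) is many times their spread. Control cultures lay at −4.92, −5.94 and −6.95 and then at −2.24, −1.71 and −1.90 (3.99, SE 0.61, adjusted p = 0.151). The difference of the time differences was 1.98 (SE 0.87, adjusted p = 0.817).

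Both calls rest on few arrays. Hba-a1 missed the threshold without any one of the 108 h prominin arrays, without prominin 24 h replicate 2 or 3, and without control 24 h replicate 2 or control 108 h replicate 3 (adjusted p 0.0638 to 0.129). AF071431 missed it without any one of the 108 h prominin arrays or without prominin 24 h replicate 2 (0.0644 to 0.0762). Fitted on the 6 prominin arrays alone, both had an adjusted p of 0.361, and over all alternatives the adjusted p ran from 0.00235 to 0.361 for Hba-a1 and from 0.000763 to 0.361 for AF071431.

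**Figure D1:**
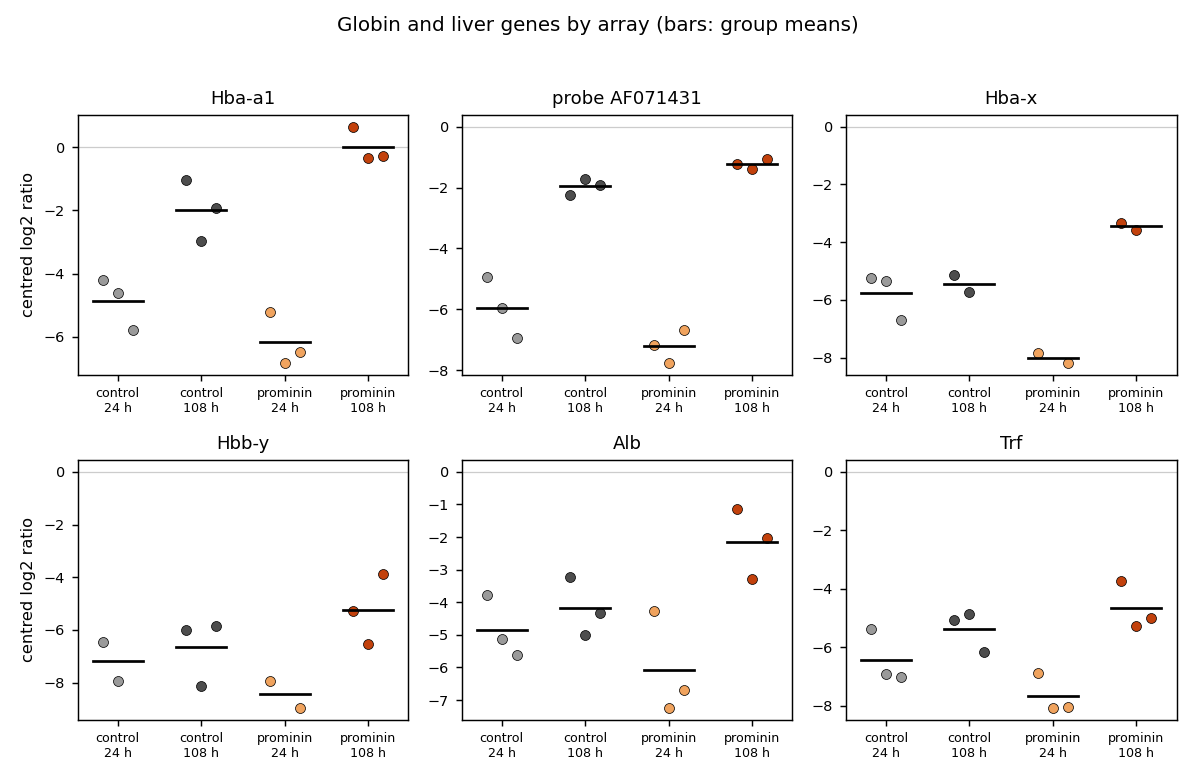
Centred log2 ratio to the embryo reference (y axis) is given for each array of the 4 groups (x axis). Points are arrays and bars are group means. Shown are 3 globin genes, probe AF071431, and Alb and Trf, which were listed for tissues outside the nervous system. Whether Alb and Trf are confined to such tissues was not tested. In Hba-a1 the prominin arrays go from −6.83 to −5.21 at 24 h to between −0.34 and 0.66 at 108 h.

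Other globins were not called. Hba-x, the embryonic zeta-type alpha chain, lay at −7.85 and −8.18 at 24 h and at −3.32 and −3.58 at 108 h, on 2 arrays each. That difference of 4.56 (SE 0.82, adjusted p = 0.23) stands beside 0.33 in controls. Hbb-y, an embryonic beta chain, lay at −7.94 and −8.96 at 24 h and at −5.30, −6.52 and −3.87 at 108 h (3.22, SE 1.05, adjusted p = 0.457), against 0.54 in controls. Hbb-bh1, another embryonic beta chain, lay at −6.56 and −6.18 at 24 h and at −0.565 and −6.93 at 108 h, so its times overlap (2.62, SE 2.12, adjusted p = 0.799), and it had no control difference. In Hba-a1, Hba-x and Hbb-y the times did not overlap in prominin cultures and the differences were larger than in controls, but none of the 3 passed the test of that excess. Regulators of erythroid genes had differences below 0: Gata1, the erythroid transcription factor, stood at −3.13 and Klf1, a globin activator, at −1.89. Slc4a1, the red cell anion exchanger, stood at 0.98, Epb42, a red cell membrane protein, at 0.13 and Tfrc, the transferrin receptor, at −0.08. Of 9 erythroid genes tested, the groups did not overlap upward in 3 (10.5% of all genes) and downward in 2 (9.67% of all genes). Among the 9, 6 were higher and 3 lower, with a median of 0.98. That median is −0.53 without prominin 108 h replicate 1, −0.09 without replicate 2 and 2.18 without replicate 3, and 0.13 to 0.48 without any one of the 24 h prominin arrays.

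Genes listed for liver, muscle and heart stand for tissues outside the nervous system, but whether each is confined to them was not tested. Most lay far below the median probe at both times, and most of those lay less far below it at 108 h. Myog, which ranged from −5.77 to 2.64 over the 6 arrays, is an exception. Of 16 tested, 13 were higher and 3 lower, and the median was 1.76, beside 0.02 over all genes. Without prominin 24 h replicate 1, 9 genes were tested and the median was 0.98. With all arrays, the groups did not overlap in 9 of the 16, all higher (10.5% of all genes), and none passed the adjusted threshold. Alb, the albumin of liver and yolk sac, lay at −4.28, −7.24 and −6.69 at 24 h and at −1.15, −3.27 and −2.03 at 108 h (3.92, SE 0.93, adjusted p = 0.296). Trf, the iron carrier transferrin, lay at −6.87, −8.07 and −8.04 and then at −3.74, −5.27 and −5.00 (2.99, SE 0.73, adjusted p = 0.317). In both genes every 108 h array is above every 24 h array. Acta1, the actin of skeletal muscle, differed by 3.59, Ttr, the thyroxine carrier, by 3.04, Ahsg by 2.49, Apoa1 by 2.37 and Afp, the fetal counterpart of albumin, by 2.03. The other way went Myog, a myogenic factor (−2.57), and Nppa, a heart peptide (−1.05).

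In controls the same genes had a median difference near 0. Over the 12 tested in all 4 groups, the median was 2.26 in prominin cultures and 0.18 in controls, and the difference of the time differences was above 0 in all 12, beside 51.1% of all genes. None of these differences passed. The codes for missing values mattered here: the list's median relative to all genes turned to −0.42 with exact zeros kept as values and to −0.23 with the top code kept too. Low ratios as such went with the difference: the 291 probes below −4 in the 24 h controls had a median difference of 0.91 in prominin cultures and 75.3% were higher. In the 842 probes from −4 to −2 the median was 0.19, and in the 323 above 4 it was −0.18. Globin and liver genes sit in the lowest class, and the part of a low ratio in their difference was not tested.

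Ribosomal protein genes were higher at 108 h in most cases. Of 60 tested, 56 were higher at 108 h and 4 lower (Rpl32, Rpl23, Rps20 and Rpl8), with a median difference of 1.53. In 36 of them the groups did not overlap, all higher (10.5% of all genes), and 32 had an unadjusted p under 0.05 (4.18% of all genes), again all higher. None passed the adjusted threshold. Rplp1, an acidic protein of the ribosomal stalk, had the smallest p, with −1.79, −1.53 and −2.25 at 24 h and 1.71, 1.69 and 2.33 at 108 h (3.77, SE 0.63, adjusted p = 0.184). Rplp2, its partner in the stalk, lay at −1.52, −1.38 and −1.44 and then at 0.65, 1.24 and 2.25 (2.83, SE 0.61). Rpl28, of the large subunit, differed by 2.71 (SE 0.59), with an adjusted p of 0.303. Gene averages of Rps15 and Rps14 differed by 2.76 and 2.63. In all of these every 108 h array stands above every 24 h array.

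The medians were smaller in control cultures. Over 58 ribosomal genes tested in all 4 groups, the median was 1.53 in prominin cultures and 0.11 in controls. The difference of the time differences was above 0 in 56 of 58, beside 51.1% of all genes, with none past the threshold. Rplp1 differed by 1.37 and Rpl28 by 0.86 in controls. The median ribosomal gene of each array lay at −1.02, −1.02 and −1.11 at 24 h and at −0.06, −0.10 and 1.67 at 108 h, so replicate 3 of the 108 h arrays stands apart from the other 2. Without it, 51 of 58 genes were higher and the median was 1.11. The first 2 arrays of 108 h are still above all 24 h arrays.

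That array also holds a repeated value. On prominin 108 h replicate 3, 35 probes lie within 0.001 of a deposited 0.007 (2.33 after centring), a ratio close to 1, against 0 to 5 on the other 11 arrays. Among them are probes of Rplp1, Rps14, Rpl19, Actb, Eef1a1 and Ppia, genes of abundant RNA. On the same array 10 of 67 ribosomal probes lie within 0.02 of 0, and on the others none. Values near 0 are not confined to that array, however. Over all probes, with ratios of small whole numbers set aside, 22, 74 and 78 lie within 0.02 of 0 on the 108 h prominin arrays. The 108 h control arrays have 54 to 73 and the 24 h arrays 1 to 15, so such values run along culture time. As deposited, the median ribosomal probe lay at −2.46, −2.18 and −2.13 on the 24 h arrays and at −2.70, −1.89 and −0.69 at 108 h, so on that scale replicate 1 of 108 h is the lowest of the 6. The list's median difference is then 0.48, while the median over all genes is −1.04. The part of the repeated value and of the scale in the ribosomal result was not tested.

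**Figure D2:**
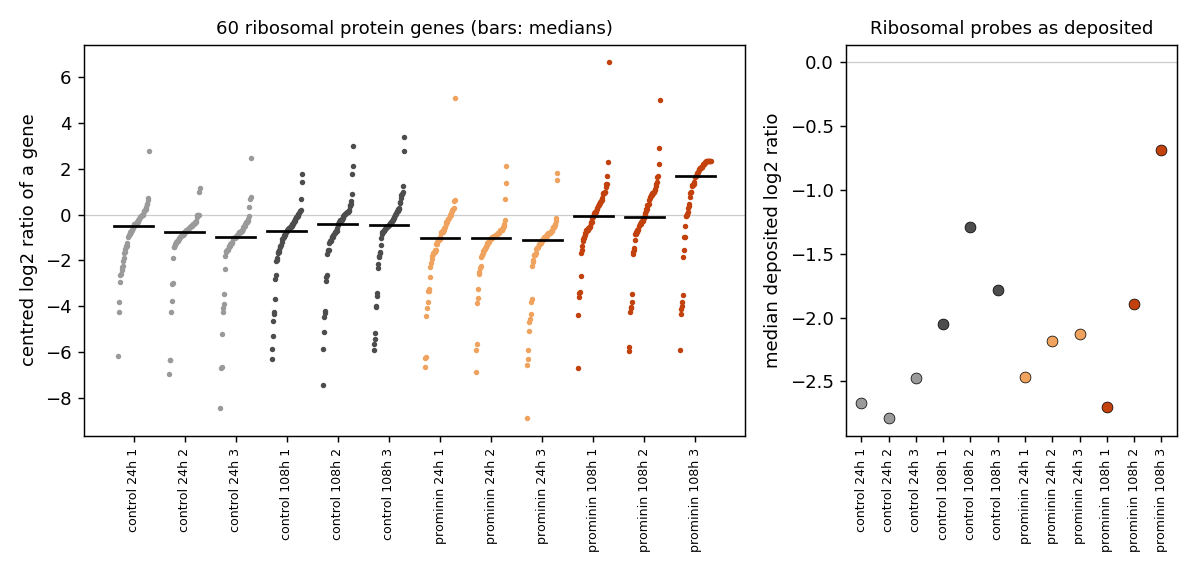
Left, centred log2 ratio of each of 60 ribosomal protein genes (points, sorted within an array) on the 12 arrays, with the median as a bar; right, the median ribosomal probe of each array as deposited. The 108 h prominin arrays have medians of −0.06, −0.10 and 1.67 after centring, above the 24 h prominin arrays at −1.11 to −1.02; as deposited they lie at −2.70, −1.89 and −0.69.

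The wider machinery of translation and energy had smaller differences. Of 53 genes of oxidative phosphorylation, 45 were higher and 8 lower, with a median of 0.54 (−0.53 as deposited, and 0.35 without prominin 108 h replicate 1). Over the 51 tested in all groups the medians were 0.53 and 0.17 in controls. In 15 the groups did not overlap upward (10.5% of all genes) and in 1 downward (9.67% of all genes). Cox7a2 (2.50) and Cox6c (1.52), subunits of cytochrome oxidase, had the smallest p, followed by Atp5j of ATP synthase (1.22) and Ndufa1 of complex I (1.20). Of 29 translation factors, 20 were higher, with a median of 0.40 (−0.66 as deposited, and 0.24 without prominin 108 h replicate 3). Eif4b, which aids the helicase at the mRNA cap, differed by 2.30 and Eef1a1, which delivers tRNA to the ribosome, by 1.65. Of 30 proteasome genes, 18 were higher and 12 lower (median 0.24). Leaving out replicate 1 of 108 h gives a median of 0.02, and leaving out replicate 2 of 24 h gives 0.10. None of these genes passed.

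Of the other probes with small p upward, Mt1, a metal-binding metallothionein, lay at −1.57, −1.53 and −2.58 at 24 h and at 0.74, 0.32 and 1.77 at 108 h (2.84, SE 0.62, adjusted p = 0.303). Controls had a difference of 2.11. Ugt2b37, a glucuronosyltransferase, differed by 3.21 (SE 0.66) and Tpt1, an abundant growth-related protein, by 3.00 (SE 0.66), with the same adjusted p. A second Tpt1 probe gave −4.32 (adjusted p = 0.555), so the probes of that gene disagree. A probe named Rad52, for a DNA repair protein, differed by 3.15 (SE 0.58, adjusted p = 0.226), while a second Rad52 probe gave −1.44. The first of these is also among the repeated values: as deposited it lies within 0.008 of 0 on 5 of the 6 arrays at 108 h, controls included.

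No probe was called lower. The smallest p was that of Col5a3, a fibrillar collagen chain, with 4.75, 5.72 and 4.92 at 24 h and 0.77, −2.79 and 0.81 at 108 h (−5.53, SE 0.94, adjusted p = 0.184). Without centring its difference is −6.60 and passes (adjusted p = 0.04). Controls lay at 4.89, 5.33 and 5.26 and then at 0.27, 1.20 and 1.94 (−4.02), also without overlap. B3galnt1, a glycosyltransferase of globoside synthesis, lay at 3.49, 3.62 and 4.69 and then at −0.95, −1.90 and 0.04 (−4.87, SE 0.86, adjusted p = 0.184), against −1.22 in controls. Stxbp3, a syntaxin-binding protein of vesicle fusion, lay at 3.38, 2.14 and 3.61 and then at −2.04, −0.21 and −1.17 (−4.18, SE 0.71, adjusted p = 0.184). Its control difference was 0.47, and the difference of the time differences −4.65 (SE 1.00) did not pass. Of the prominin values of Stxbp3, 2 are ratios of small whole numbers, as dim spots give.

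Errfi1, a feedback inhibitor of the EGF receptor, lay at 3.16, 6.39 and 3.79 and then at 0.54, −1.46 and −0.48 (−4.91, SE 0.95, adjusted p = 0.302). Camk2g, a calcium-dependent kinase, differed by −4.65 and Smoc1, a calcium-binding matrix protein, by −3.43. The neighbour of these by p, Cdh13, an anchored cadherin, lay at 2.02, 1.67 and 0.30 and then at −1.17, −1.58 and −1.53 (−2.76, SE 0.62, adjusted p = 0.304). Controls stood at −0.05 for Camk2g, −1.71 for Smoc1 and −0.09 for Cdh13. Tcf12, a partner of proneural factors, differed by −3.51, Haus7, a subunit of the augmin complex, by −3.21 and the pseudogene Klk1b2-ps by −2.91. Tcf12 was not measured in the 24 h controls, and a second Klk1b2-ps probe gave −0.58. Ratios of small whole numbers made up 3 of the prominin values in Camk2g and 2 each in Haus7 and Klk1b2-ps. They made up 1 each in Errfi1 and Smoc1, and 0 in Cdh13 and Tcf12.

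**Figure D3:**
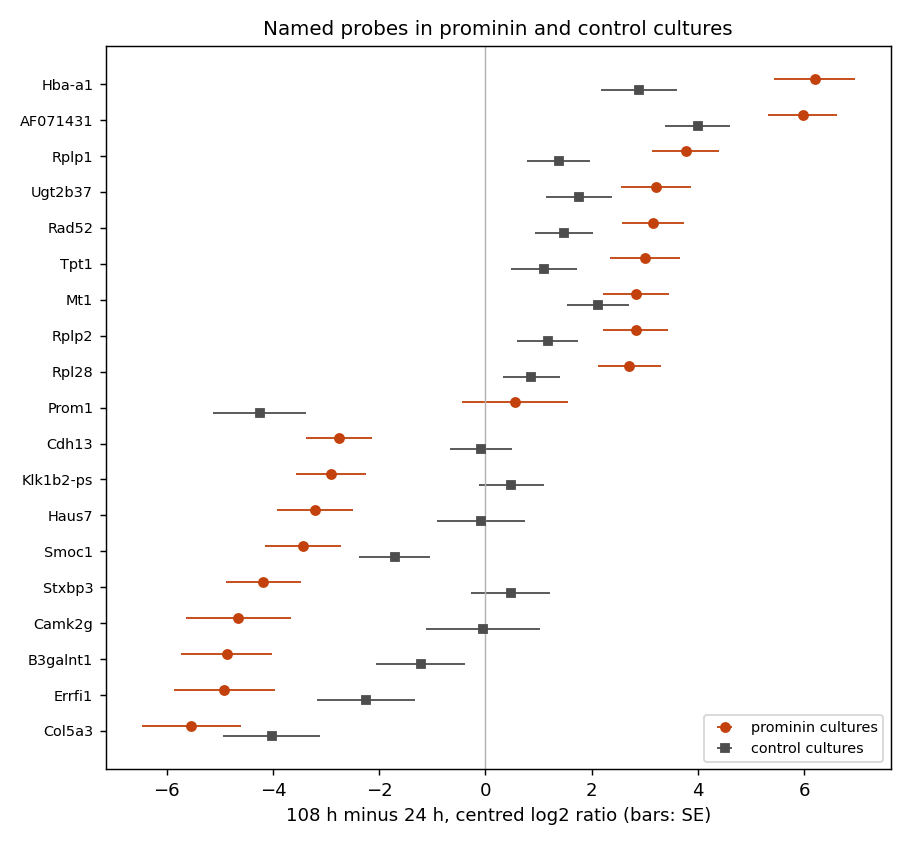
Difference between 108 h and 24 h on the centred log2 scale (x axis), with its SE as a bar, for most of the named probes (y axis) in prominin cultures (circles) and control cultures (squares). Hba-a1 and AF071431 lie farthest to the right in both kinds of culture. Stxbp3, Camk2g and Cdh13 lie left of 0 in prominin cultures and near 0 in controls. Of their prominin values, 2 in Stxbp3, 3 in Camk2g and 0 in Cdh13 are ratios of small whole numbers.

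Genes of myelin and the oligodendrocyte lineage went both ways. Mbp, the basic protein of myelin, lay at 1.49, 1.07 and 2.94 at 24 h and at 5.80, 5.32 and 5.27 at 108 h (3.63, SE 0.70, adjusted p = 0.23). Bcas1, of early myelinating oligodendrocytes, lay at 5.42, 3.46 and 5.34 and then at 7.87, 9.70 and 7.70 (3.68, SE 0.81, adjusted p = 0.271). Sox10, the factor that drives myelin genes, lay at −0.62 and 0.14 and then at 3.92, 3.57 and 2.21 (3.47, SE 1.07, adjusted p = 0.44). The groups do not overlap in any of these, and the control differences were 2.30 in Mbp and 3.21 in Bcas1. Mobp, a myelin protein, differed by 0.63 and Cldn11, of the tight junctions of myelin, by −1.69, both with overlap. Of the precursor markers, Olig1 differed by −0.97, Olig2 by 0.23 and Pdgfra, the PDGF receptor of precursors, by −2.41. Of 8 genes of the lineage tested, the groups did not overlap upward in 3 (10.5% of all genes) and downward in 1 (9.67% of all genes). Among the 8, 5 were higher and 3 lower (median 0.43). With 1 prominin array left out, the median is −0.65 (24 h replicate 1), 1.93 (24 h replicate 3) or 1.43 (108 h replicate 2).

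Astrocyte genes were mixed. Apoe, the main lipid carrier of astrocytes, lay at −1.14, −1.52 and −1.57 at 24 h and at 0.68, 0.70 and 1.17 at 108 h (2.26, SE 0.55, adjusted p = 0.317). Clu, a secreted chaperone, lay at 0.98, 0.98 and 0.33 and then at 2.70, 3.59 and 2.63 (2.21, SE 0.61, adjusted p = 0.36). Controls differed by 2.87 and 2.82. Gpr37l1, a receptor of astrocytes and their precursors, differed by 2.65 in prominin cultures and by −0.67 in controls, on 2 arrays at 108 h in the former. Gfap had 0.41 and S100b 0.04, and Gja1, the main gap junction protein of astrocytes, had −2.06. Of 10 astrocyte genes 6 were higher and 4 lower (median 0.23). With 1 prominin array left out, that median is −0.05 (24 h replicate 1), 0.04 (108 h replicate 3), 0.41 (108 h replicate 1), 0.57 (24 h replicate 2) or 0.38 (24 h replicate 3).

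Neural stem genes leaned the other way. Of 22 tested, 5 were higher and 17 lower, with a median of −0.50 (all genes 0.02), and over the 21 also tested in controls the medians were −0.45 and 0.13. Without prominin 108 h replicate 1 the median of the tested genes is −0.84, and without prominin 108 h replicate 2 it is −0.35. Ptprz1, a receptor phosphatase of radial glia, lay at 5.41, 6.33 and 6.40 at 24 h and at 4.60, 4.34 and 4.01 at 108 h (−1.73, SE 0.63, adjusted p = 0.521). Sox2, which maintains the stem state, lay at 3.86, 4.60 and 5.06 and then at 3.71, 3.82 and 3.48 (−0.84). Sox9, a factor of glial progenitors, differed by −1.95. Nes, the intermediate filament of progenitors, had −0.23 and Fabp7, of radial glia, −0.22. Msi1, an RNA-binding protein, had −4.76, with 1 array of 108 h at −7.83. Hes5, a target of Notch, had 3.46, from −1.16 and −2.10 to 3.67 and −0.01. Of 23 neuronal genes, 12 were higher and 11 lower.

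Genes listed for the response to the growth factors in the medium, their receptors included, and for the cell cycle were lower in greater number. Of 17 FGF, EGF and LIF response genes, 5 were higher and 12 lower (median −0.62, and −0.96 without prominin 108 h replicate 2). Over the 15 tested in all groups the medians were −0.79 and −0.61 in controls. Fgfr1, an FGF receptor, lay at 1.46, 1.93 and 2.66 at 24 h and at −2.93, −0.07 and −0.23 at 108 h (−3.09, SE 0.99, adjusted p = 0.44). Dusp6, a phosphatase induced by ERK signalling, differed by −2.66 and by −2.21 in controls. Egfr, the EGF receptor, lay at −3.23, −2.49 and −2.43 and then at −1.17, −1.86 and −1.10 (1.34, SE 0.54), against −0.83 in controls. Of 18 immediate early genes, 4 were higher and 14 lower (median −0.89, and −0.57 without prominin 24 h replicate 3). Over the 17 tested in all groups the median was −0.79, and in controls it was 0.41, with 10 higher and 7 lower. Nr4a2, an orphan nuclear receptor, differed by −4.57, Egr1 by −2.61 and Jund by −1.45, while Atf3, a stress-induced factor, had 4.39 and Klf4 had 3.06.

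Of 18 mitotic genes, 6 were higher and 12 lower (median −0.67), and over the 16 tested in all groups the medians were −0.64 in prominin and −1.53 in control cultures. The median over the list is −0.25 with replicate 2 of the 108 h prominin arrays left out and −0.35 with replicate 1 of 24 h left out. In 5 of the 18 the groups did not overlap, all lower (9.67% of all genes), and 4 had an unadjusted p under 0.05, all lower (3.93% of all genes). Cdk1, the mitotic kinase, lay at −2.37, −1.27 and −0.32 at 24 h and at −4.25, −3.69 and −3.83 at 108 h (−2.61, SE 1.04). Aurka, a spindle kinase, differed by −2.61, Prc1, of the midzone, by −2.25 and Kif23, a motor of cytokinesis, by −3.94. Of 21 genes of DNA replication, 6 were higher and 15 lower (median −0.53, controls −1.12). With prominin 108 h replicate 3 left out, 9 of 19 were higher and 10 lower (median −0.42). Leaving out any 1 prominin array gives medians from −0.65 (24 h replicate 1) to −0.36 (108 h replicate 1). Among these genes Rrm2, a subunit of ribonucleotide reductase, had −1.65 and the helicase gene Mcm2 −0.81. Both lists had negative medians in controls too, and none of the genes passed.

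Of 18 genes of cholesterol synthesis and uptake, 6 were higher and 12 lower (median −0.68, and over the 16 tested in all groups −0.80 against 0.02 in controls). Srebf2, the master regulator of this pathway, lay at 0.60, 0.25 and 0.28 at 24 h and at −3.13, −1.26 and −1.29 at 108 h (−2.27, SE 0.68, adjusted p = 0.408). The groups do not overlap. Fdft1, squalene synthase, differed by −1.66, and controls had −0.58 for Srebf2 and −0.48 for Fdft1. Insig1, a sterol sensor, had −0.91. Of 25 lysosomal genes, 13 were higher and 12 lower.

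Among stress lists, hypoxia and glycolysis had 13 higher and 10 lower of 23, and its median of 0.82 falls to between 0.04 and 0.07 without any one of the 108 h arrays and to 0.13 without prominin 24 h replicate 2. Egln3, an oxygen sensor, had 3.69 and Ldha, lactate dehydrogenase, 1.15. Endoplasmic reticulum stress had 9 higher and 12 lower of 21. Within it Ddit3, the factor CHOP, lay at −1.80, −0.26 and −3.11 at 24 h and at 2.63, 2.34 and 0.94 at 108 h (3.69, SE 0.87, adjusted p = 0.291), with −0.06 in controls, whereas Creld2 had −3.66. Of 15 p53 targets, 8 were higher. Phlda3 lay at 1.40, 1.30 and 1.88 and then at 3.69, 3.53 and 2.73 (1.79, SE 0.57, adjusted p = 0.428), against −0.07 in controls, and the pro-apoptotic Bbc3 had −2.30. Of 15 apoptosis genes, 7 were higher and 8 lower. Isg15, an interferon-induced ubiquitin-like protein, had −2.89. Interferon and antiviral genes as a list had 13 higher and 10 lower, with a median of 0.32. With 1 prominin array left out, that median is −0.08 (108 h replicate 1), −0.04 (24 h replicate 2), 0.63 (108 h replicate 2) or 0.74 (24 h replicate 1). Oxidative stress genes had 11 higher and 7 lower (median 0.42), Mt1 among them, with Gclc of glutathione synthesis at 3.14. Their median, with 1 array left out, is 0.06 (24 h replicate 3), 0.14 (108 h replicate 3), 0.27 (108 h replicate 2) or 0.75 (108 h replicate 1).

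Prominin-1 sits on membrane protrusions. Of 19 genes of membrane protrusions, 9 were higher and 10 lower (median −0.17, and from −0.62 without replicate 1 of 24 h to −0.09 without replicate 2 of 108 h). Msn, moesin, which ties actin to the membrane, lay at 2.28 and 3.28 at 24 h and at −1.29, 0.03 and −1.47 at 108 h (−3.69, SE 0.74, adjusted p = 0.23), with −2.62 in controls. Vil1, villin of microvilli, had 2.17. Notch, Wnt and hedgehog targets had 7 higher and 6 lower, and matrix and adhesion genes 9 higher and 16 lower (median −0.42, and from −0.60 without replicate 1 of 108 h to −0.17 without replicate 3 of 24 h). In 4 of the matrix and adhesion genes the groups did not overlap, all lower (9.67% of all genes). Markers of other cell types were few and mixed: 5 of 11 leukocyte genes, 7 of 11 endothelial and mural genes and 7 of 14 fibroblast genes were higher. In the fibroblast list Col1a1 had 2.84 and Col3a1 −1.87.

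**Figure D4:**
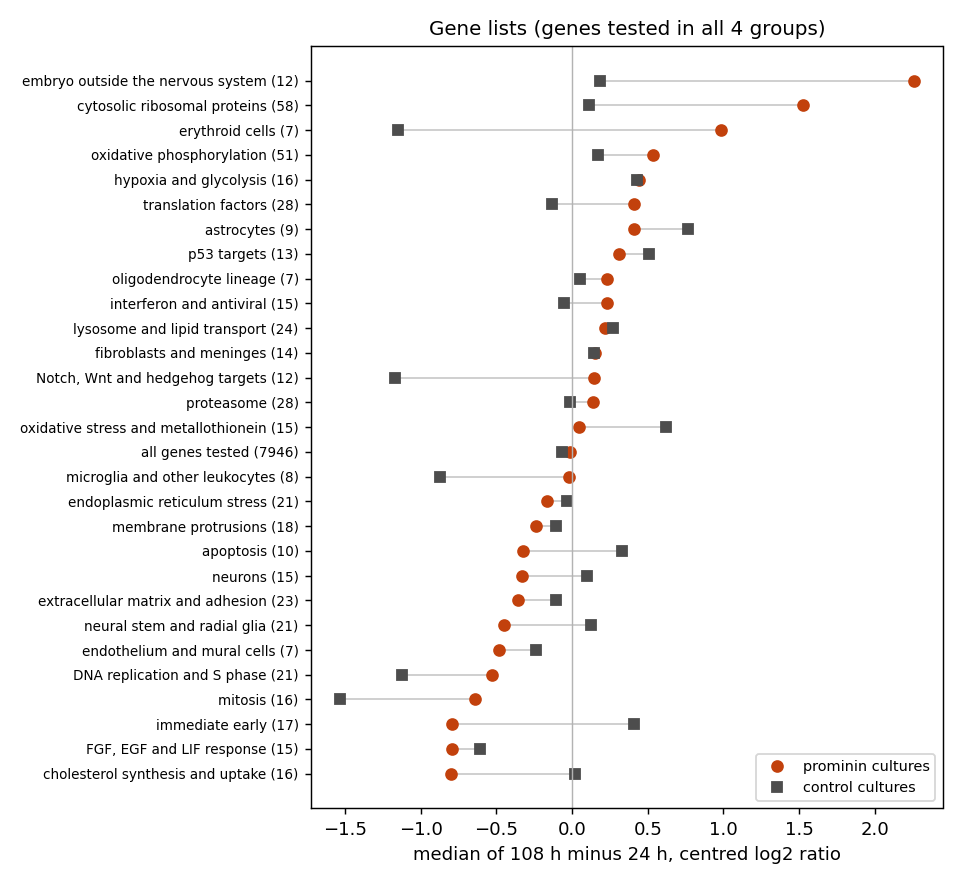
Median difference between 108 h and 24 h on the centred log2 scale (x axis) of each gene list (y axis, number of genes tested in all 4 groups in parentheses) in prominin cultures (circles) and control cultures (squares). Genes listed for embryonic tissues other than the nervous system (2.26 against 0.18) and ribosomal proteins (1.53 against 0.11) stand farthest to the right in prominin cultures.

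Probes without values at one time stand outside these tests. All 3 arrays of 108 h had a value and none of 24 h in 541 probes, and the reverse held for 43. The surplus goes with the number of measured probes, which is larger on every 108 h array, so a missing value at 24 h was not read as absence of RNA.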

How the data were processed

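RNA of prominin and control neurospheres was measured on 12 two-colour mouse oligonucleotide arrays, per the labels. The deposited values are log2 ratios of sample to reference as read from their range. Their scale, direction, scanning and normalization: not given in the sources used here. Exact zeros and the top code of 16.61 were set to missing, and from each array the median of the 4532 probes with values on every array was subtracted. Probes with at least 2 values in both prominin groups were fitted with limma 3.58.1 in R 4.3.3, with 1 mean per group over all 12 arrays, moderated variance, Benjamini-Hochberg adjustment over all probes tested and a threshold of 0.05. Arrays differ in the number of measured probes and in dim spots, and their number limits the precision. The fit was tested on simulated data.

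Symbols came from a platform table (16620 probes with 1 symbol, 113 with several, 5005 with none, of which 324 were named by a RefSeq accession) and may be out of date. For lists, which are described by counts and medians, several probes of one gene were averaged. List genes carry the fit on gene averages, and the others the fit on probes. The members of the comparison and the gene lists were chosen with earlier results of these data known. Named were Prom1, then probes with 1 symbol past the threshold without overlap, then the next by unadjusted p, up to 10 each way, then up to 4 members per list and a few defining ones; AF071431 was added because it passed. Alternatives changed scaling, codes, filters, variance model, features and replicates. Some genes that the rule names are not reported here.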

Additional observations from a re-analysis of the deposited data

How the results depend on the processing

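The count of probes called in prominin cultures depended on the setting. It was 2 as reported, 16 (2 higher, 14 lower) with exact zeros and the top code kept as values, 7 with small whole-number ratios missing, 6 with values required on all 3 arrays of both groups, 5 without moderation of the variance, 1 with the probes of a gene averaged and 0 on the compared arrays alone. Without 1 array it ran from 0 to 2. Small ratios missing and all 3 arrays required together, an alternative chosen after seeing the data, called 19 (14 higher, 5 lower). For the control cultures, where 0 were called, these settings gave 11 with codes kept, 3 with small ratios missing, 2 with all 3 arrays and 3 with both. AF071431 was among these control calls with small ratios missing (limma adjusted p = 0.047), with all 3 arrays (0.0245) and with both (0.00724). The difference of the time effects went from 0 to 23 with codes kept. Nothing in the labels says that the replicate numbers pair the samples. Deviations of same-numbered prominin arrays correlated at 0.01, 0.05 and −0.03, which cannot decide it with 3 arrays per group. With the replicate block 1 probe was called, Hba-a1, while AF071431 had a limma adjusted p of 0.0515. Prom1 turned to −0.65 without centring, and Tpt1 to −0.66 when its probes were averaged. Hba-a1 stayed positive under every alternative run (5.13 to 6.68), as did AF071431 (4.91 to 6.23) and the median of ribosomal genes relative to all genes (1.00 to 2.00). Ratios of small whole numbers made up to 51.3% of the values on a 24 h array. Time and batch cannot be told apart.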
